A study of Mus musculus with 6 samples.

Results

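The cyclins and inhibitors that control entry into S phase were examined in GS cells, cultured mouse spermatogonia with stem cell activity. The group held 10 genes, taken by name from the 32285 genes of the count table: the D-type cyclins Ccnd1, Ccnd2 and Ccnd3, the E-type cyclins Ccne1 and Ccne2, the inhibitors Cdkn1b, Cdkn2a, Cdkn2b and Cdkn2c, and Rb1. All 10 passed the filter on low counts, as did 15104 genes in all. GS cells were derived from testes of newborn mice of a C57BL6 line with the EGFP transgene Tg14(act-EGFP-OsbY01) that had been crossed into DBA/2, and were grown with GDNF and FGF2 on embryonic fibroblast feeders. They were stored frozen for 6 months, either on the International Space Station (Space) or on Earth (Ground), and RNA was taken the day after thawing without passage. There were 3 libraries of poly(A) RNA per group. The study describes the cells as cell lines, but no label says which libraries share a line, so the p-values measure the spread between these libraries only. Groups follow the library titles, as do the headers of the count table. The treatment label says the opposite of the title in all 6 libraries, so every direction below would turn if that label were right.

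D-type cyclins pair with Cdk4 and Cdk6 and carry growth factor signals to the cell cycle. These kinases, and later Cdk2 with E-type cyclins, phosphorylate the retinoblastoma protein Rb, which then releases E2F factors that switch on genes for S phase. Ink4 proteins (p15, p16 and p18) block Cdk4 and Cdk6, whereas p27, the product of Cdkn1b, acts on cyclin E-Cdk2 complexes. Cyclin D2 is known as a gene that self-renewal factors induce in spermatogonial stem cells.

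The D-type cyclins bind Rb through a short LxCxE motif near their amino terminus. The first 60 coding bases of the principal GENCODE M21 transcripts (GRCm38) are given here 5′ to 3′ because the results below turn on telling these genes apart. The capitals mark the codons of the motif, which are codons 5 to 9 in Ccnd1 and 3 to 7 in Ccnd2 and Ccnd3.

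Ccnd1: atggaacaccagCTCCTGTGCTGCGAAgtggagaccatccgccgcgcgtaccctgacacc
Ccnd2: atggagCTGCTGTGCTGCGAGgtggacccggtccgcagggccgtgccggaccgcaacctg
Ccnd3: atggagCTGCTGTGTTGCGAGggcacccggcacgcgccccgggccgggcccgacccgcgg

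The coding sequences were 70.5% identical between Ccnd1 and Ccnd2 over 854 aligned bases, 67.3% between Ccnd1 and Ccnd3, and 69.5% between Ccnd2 and Ccnd3. The longest exact run shared by Ccnd1 and Ccnd2 was 20 bases. No annotated transcript of these 10 genes matched one of another member at 95% identity or more over at least 100 bases. Ccnd3 matched the pseudogene Ccnd3-ps over 754 bases at 96.4% identity, and how reads shared with it were counted is not stated.

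Cdkn2a encodes 2 unrelated proteins, p16Ink4a and p19Arf, which restrain Rb phosphorylation and stabilise p53, respectively. Each has its own first exon, and both read into the same second exon in different frames. The last 30 bases of each first exon are in lower case and the first 30 bases of the shared exon (chromosome 4, 89276645 to 89276985, minus strand, GRCm38) in capitals.

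Exon 1 of p16Ink4a (chromosome 4, 89281986 to 89282192): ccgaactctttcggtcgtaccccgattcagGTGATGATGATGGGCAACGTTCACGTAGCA
Exon 1 of p19Arf (chromosome 4, 89294334 to 89294653): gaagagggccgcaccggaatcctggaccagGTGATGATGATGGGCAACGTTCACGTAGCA

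The coding part of exon 1 ended on a whole codon in the first transcript and left 1 base over in the second. The transcripts share 575 exonic bases out of 852 and 895, so 1 count per gene cannot tell p16Ink4a from p19Arf, and every value of Cdkn2a below is the sum of both. Their starts lie 12461 bases apart. The RefSeq windows of 300 bases around each start (GRCm38.p6) are shown because E2F, the factor that Rb holds in check, is known to act on the promoter of p19Arf. The capitals mark matches to TTTNNCGC, an E2F-like motif searched on both strands.

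p16Ink4a start, chr4:89282143-89282442, minus strand: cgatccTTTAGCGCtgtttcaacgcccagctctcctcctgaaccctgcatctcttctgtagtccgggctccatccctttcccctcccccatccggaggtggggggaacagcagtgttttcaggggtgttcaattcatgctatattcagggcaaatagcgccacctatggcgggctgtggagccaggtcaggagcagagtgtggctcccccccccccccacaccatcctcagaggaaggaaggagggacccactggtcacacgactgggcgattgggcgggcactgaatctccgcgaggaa
p19Arf start, chr4:89294570-89294869, minus strand: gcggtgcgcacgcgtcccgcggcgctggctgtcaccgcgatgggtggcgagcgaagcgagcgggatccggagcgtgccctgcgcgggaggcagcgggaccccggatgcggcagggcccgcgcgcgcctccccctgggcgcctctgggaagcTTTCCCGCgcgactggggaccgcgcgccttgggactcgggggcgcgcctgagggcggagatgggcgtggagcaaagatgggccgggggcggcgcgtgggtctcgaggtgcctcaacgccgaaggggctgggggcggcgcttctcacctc

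The match in the p19Arf window began 99 bases before the start, and that in the p16Ink4a window 244 bases before it. The motif stood in 1698 of 32851 promoter windows (5.17%). RefSeq gave 9 windows for 6 of the 10 genes, and only these 2 of the 9 held it. A cAMP response element, TGACGTCA, stood 46 bases before the start of Cdkn2b, in 1 of the 9 windows and in 1.79% of all. Ccnd1, Ccnd2, Ccne2 and Rb1 had no window in the table used.

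Libraries held 19015985 to 24110916 counts. Mitochondrial transcripts took 2.51% to 11.5% of them, most in Ground-2. All 18 listed spermatogonial markers passed the filter, from Nanos2 at 4.78 to 12.1 CPM and Cdh1 at 7.04 to 10.9 to the germ cell genes Ddx4 at 376 to 422 CPM (counts scaled to library depth with TMM normalization factors) and Dazl at 782 to 964 CPM. The 20 listed fibroblast markers, genes that feeders express, summed to 1119 to 1131 CPM in Ground. The sums for Space-1, Space-2 and Space-3 were 885, 1145 and 1013 CPM. Fn1, at 376 to 465 CPM, and Col5a1, at 231 to 307, weighed most in these sums. Single markers could vary more within Ground than the sum, such as Vim at 51.1, 73.0 and 98.3 CPM. Of the 20, 19 had a log2 fold change below 0 and 0 passed edgeR's adjusted test, with 3 at an unadjusted p under 0.05, against 51.3% of all genes below 0 and 0.609% at such a p. None was at 0. Col1a1 was at 118 to 122 CPM in Ground and 95.3 to 127 in Space, and the groups overlapped for every marker but Col1a2, at 29.7 to 33.8 and 13.3 to 26.0 CPM. Of markers of other testis cells, the Sertoli gene Fshr and the Leydig genes Hsd3b1 and Lhcgr had no counts, whereas Wt1 was at 16.1 to 19.7 CPM, Sox9 at 4.41 to 9.60 and Star at 3.95 to 5.04. The macrophage gene Adgre1 was at 0 in 5 of 6 libraries and Cd68 at 14.0 to 22.0 CPM, and the endothelial gene Kdr was at 1.07 to 9.14 CPM. In such bulk RNA, fewer cells of a type and less RNA per cell cannot be told apart. Over all genes, the libraries most alike were in different groups. The median chi-square between libraries, relative to sampling noise, was 1.55 for Ground-1 with Space-3, 2.58 for Ground-3 with Space-1 and 2.65 for Ground-2 with Space-2, against 5.07 to 10.5 for the other 12 pairs. Below, 3 values in a row belong to replicates 1, 2 and 3 of a group.

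Ccnd2 was the most abundant of the 10 genes. To compare genes, CPM was divided by the exonic length of the principal transcript in kilobases. On this scale Ccnd2 stood at 90.3 ± 21.9 CPM per kb (SD, n = 6), above 95.5% of the genes tested. Cdkn2a followed with 53.1 ± 2.12, the highest level among the inhibitors. Ccnd3 had 44.4 ± 2.61 and Ccnd1 40.1 ± 9.87 CPM per kb. Their ranges overlapped, with Ccnd3 above Ccnd1 in 4 of 6 libraries.

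Ccne1 had 21.1 ± 1.17 CPM per kb, Rb1 15.1 ± 1.24 and Ccne2 8.38 ± 0.534 (SD, n = 6). The other Ink4 genes were lower, with 7.16 ± 1.30 CPM per kb for Cdkn2b and 1.24 ± 0.166 for Cdkn2c. Cdkn1b was the lowest, with 0.885 ± 0.146 CPM per kb, above 18.1% of the genes tested. The ranges of Ccne2 and Cdkn2b overlapped, as did those of Cdkn2c and Cdkn1b, although the first was above the second in 6 of 6 libraries in each case. Apart from these and Ccnd3 with Ccnd1, neighbours in this order did not overlap. The order depends on the length used: over all annotated exons, which are 8775 bases for Ccnd3 against 2113 in its principal transcript, Ccnd3 came to 10.7 CPM per kb and stood below Rb1, at 11.7.

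The D-type cyclins differed between libraries in opposite directions. Ccnd1 (ENSMUSG00000070348, chromosome 7, 144929931 to 144939925, minus strand, GRCm38 as for the genes below) had 111, 145 and 191 CPM in the Ground libraries. The Space libraries had 196, 142 and 113 CPM. It was thus low in Ground-1 and Space-3, high in Ground-3 and Space-1, and the groups overlapped over nearly their whole range. LTO1, which overlaps 1100 exonic bases of Ccnd1 on the opposite strand, had 264 to 298 counts per library against 2673 to 4761 for Ccnd1.

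Ccnd2 (ENSMUSG00000000184, chromosome 6, 127125162 to 127152193, minus strand) had 737, 521 and 447 CPM in the Ground libraries. Its Space values were 445, 529 and 753 CPM. The libraries that were low in Ccnd1 were those that were high in Ccnd2, and the order of the 6 libraries by Ccnd2 was nearly the order by Ccnd1 read backwards. The highest library exceeded the lowest 1.76-fold for Ccnd1 and 1.69-fold for Ccnd2. Of the spermatogonial markers, Bcl6b and Etv5, transcription factors known as GDNF targets and singled out after their values were seen, varied in the same libraries. Bcl6b had 364, 222 and 59.1 CPM in Ground against 57.6, 218 and 371 in Space, and Etv5 had 259, 202 and 93.0 against 99.1, 195 and 262. Both were thus highest in Ground-1 and Space-3 and lowest in Ground-3 and Space-1, as Ccnd2 was. Lhx1 and Epcam of the same list shared this order. Lhx1 had 64.4, 43.6 and 31.5 CPM in Ground against 35.0, 46.8 and 69.4 in Space. Epcam had 265, 252 and 206 CPM in Ground against 205, 239 and 261 in Space. The remaining markers of the list did not share it. Nanos2 ran the other way, with 4.78, 5.16 and 12.1 CPM in Ground against 11.4, 6.39 and 5.60 in Space. Dnd1 hardly varied, at 133 to 138 CPM.

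Ccnd3 (ENSMUSG00000034165, chromosome 17, 47505051 to 47599691, plus strand), the third gene that can serve Cdk4 and Cdk6, varied less. It had 89.5, 99.2 and 101.0 CPM in Ground against 95.1, 90.9 and 87.3 in Space, and the groups overlapped.

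**Figure D1:**
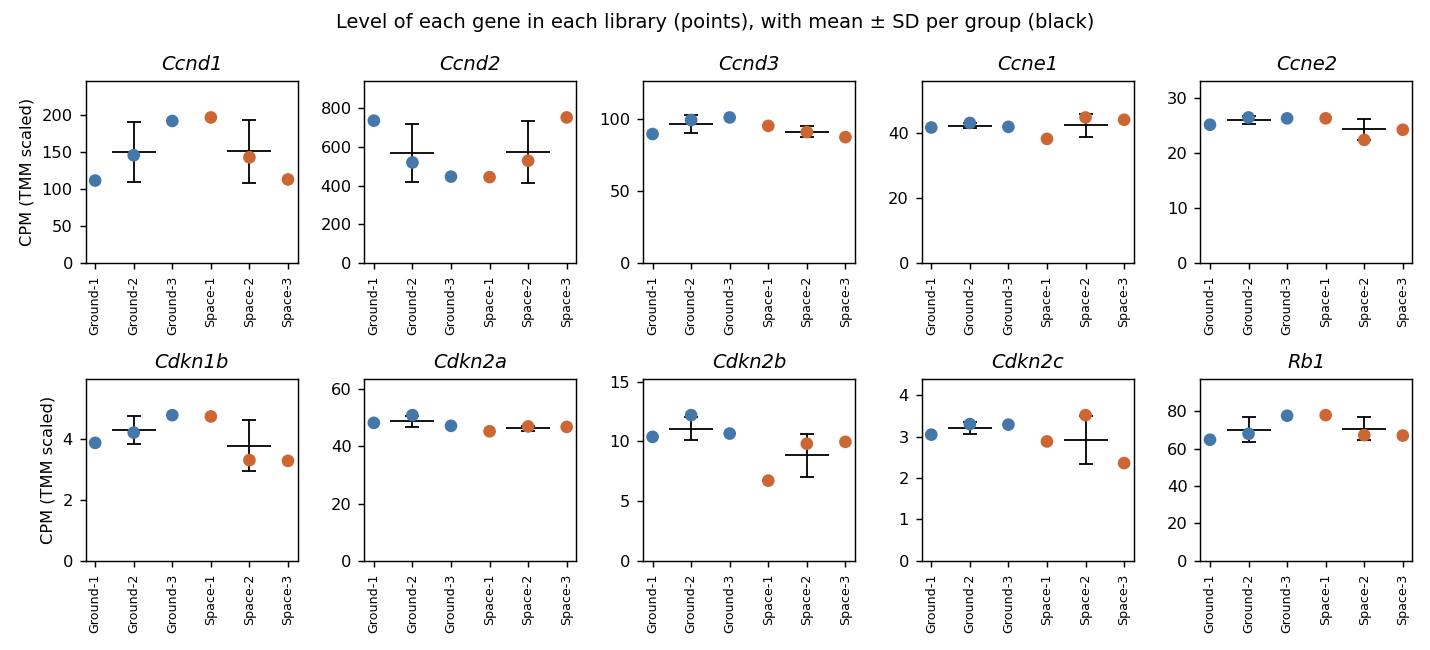
Level of each of the 10 genes (vertical axis, CPM after TMM scaling, from 0) in the 6 libraries (horizontal axis; Ground in blue, Space in orange), with the mean ± SD of each group of 3 in black. Ccnd1 runs from 111 to 196 CPM and Ccnd2 from 445 to 753 CPM with the opposite order of libraries, whereas Cdkn2a stays between 45.3 and 50.9 CPM.

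The make-up of the D-type cyclins varied more between libraries than their sum on the scale per kb. Summed per kb, they reached 188 CPM in Ground-1 and 190 in Space-3, and 165 to 170 in the other 4 libraries. Ccnd2 made up 61.8% of that sum in Ground-1 and 62.5% in Space-3. In Ground-3 and Space-1 it made up 41.7% and 41.9%, while Ground-2 and Space-2 lay between, at 48.9% and 50.8%. The share of Ccnd1 ran from 15.8% in Ground-1 and Space-3 to 30.2% in Ground-3 and 31.3% in Space-1. Per kb, Ccnd2 exceeded Ccnd1 3.92-fold in Ground-1 and 3.95-fold in Space-3, but 1.38-fold in Ground-3 and 1.34-fold in Space-1.

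The group means of these shares lay within the spread between libraries. Ccnd2 had 50.8% ± 10.2 in Ground and 51.7% ± 10.3 in Space (SD, n = 3), and Ccnd1 23.0% ± 7.20 and 23.4% ± 7.73. With the length of all annotated exons the share of Ccnd3 came to 8.74% to 11.6% instead of 21.7% to 28.2%, and that of Ccnd2 to 47.4% to 70.3%. Without length scaling the sum itself ran from 736 CPM in Space-1 to 953 in Space-3. On that scale the share of Ccnd2 was 60.4% in Space-1 and 79.0% in Space-3, and that of Ccnd1 26.6% and 11.8%.

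**Figure D2:**
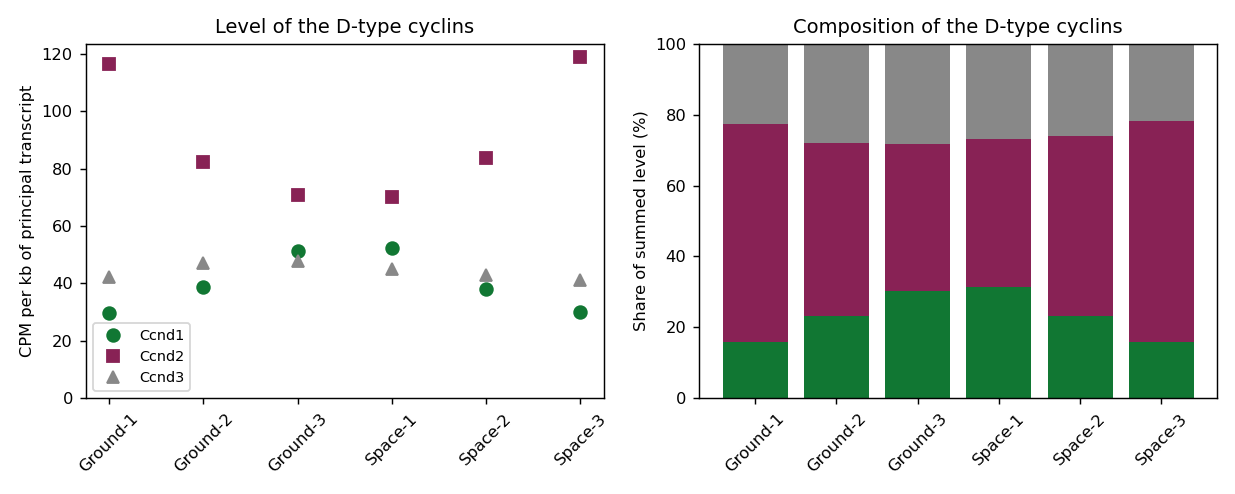
Left, levels of Ccnd1, Ccnd2 and Ccnd3 (vertical axis, CPM per kb of the principal transcript, from 0) in the 6 libraries. Right, the share of each in their sum (vertical axis, percent; Ccnd1 green, Ccnd2 purple, Ccnd3 grey), where Ccnd2 takes 61.8% in Ground-1 and 62.5% in Space-3 but 41.7% in Ground-3 and 41.9% in Space-1.

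The E-type cyclins, which activate Cdk2 at the start of S phase, varied little. Ccne1 (ENSMUSG00000002068, chromosome 7, 38097984 to 38107534) had 41.6, 43.0 and 41.8 CPM in Ground against 38.1, 44.7 and 44.0 in Space. Ccne2 (ENSMUSG00000028212, chromosome 4, 11191351 to 11204779) had 25.2, 26.5 and 26.3 CPM in Ground against 26.4, 22.4 and 24.3 in Space. Space-1 was the lowest library for Ccne1 and Space-2 for Ccne2. Per kb, Ccne1 made up 70.9% ± 0.412 of the E-type sum in Ground and 72.2% ± 3.34 in Space (SD, n = 3).

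Rb1 (ENSMUSG00000022105, chromosome 14, 73183673 to 73325822), the target of these kinases, had 64.8, 68.0 and 77.6 CPM in Ground. In Space it had 78.0, 67.2 and 67.0. Ground-3 and Space-1, the libraries with the most Ccnd1, also had the most Rb1.

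Among the inhibitors, Cdkn2a (ENSMUSG00000044303, chromosome 4, 89274471 to 89294653) had the smallest spread of the 10 genes. It had 48.2, 50.9 and 47.2 CPM in Ground against 45.3, 46.9 and 46.8 in Space. All Space values were below all Ground values, by a margin of 47.2 against 46.9 CPM at the closest.

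Cdkn2b (ENSMUSG00000073802, chromosome 4, 89306299 to 89311039), the neighbour of Cdkn2a and the gene of p15Ink4b, had 10.4, 12.2 and 10.7 CPM in Ground against 6.71, 9.80 and 9.96 in Space. The groups did not overlap, and Space-1 was well below the other 5 libraries. Space-1 was also the library with the lowest sum of fibroblast markers. Their part in the low value of Cdkn2b was not tested.

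Cdkn2c (ENSMUSG00000028551, chromosome 4, 109660876 to 109667189), the gene of p18Ink4c, had 59 to 75 counts per library. This came to 3.05, 3.30 and 3.29 CPM in Ground against 2.88, 3.52 and 2.36 in Space. Cdkn1b (ENSMUSG00000003031, chromosome 6, 134920401 to 134925513) had 62 to 115 counts. It reached 3.87, 4.21 and 4.78 CPM in Ground against 4.74, 3.30 and 3.28 in Space. The groups overlapped for each of these genes, and their low counts limit what could be detected.

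Ccnd1 and Ccnd2 had the largest spread between libraries of the 10 genes, followed by Cdkn2b. The SD of log2 CPM over the 6 libraries was 0.35 for Ccnd1 and 0.34 for Ccnd2, larger than in 80.2% and 78.8% of the genes tested. It was 0.29 for Cdkn2b, 0.24 for Cdkn1b and 0.20 for Cdkn2c. It was 0.12 for Rb1 and between 0.057 and 0.094 for Cdkn2a, Ccne1, Ccnd3 and Ccne2. The median over all genes tested was 0.15. Counting error alone would give an SD of 0.026 for Ccnd1 and 0.013 for Ccnd2, so that their spread was 13.8 and 25.6 times the counting error. For Cdkn2a and Cdkn2c it was 1.27 and 1.13 times, so that differences between libraries were hardly detectable at this depth. These errors cover counting only.

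**Figure D3:**
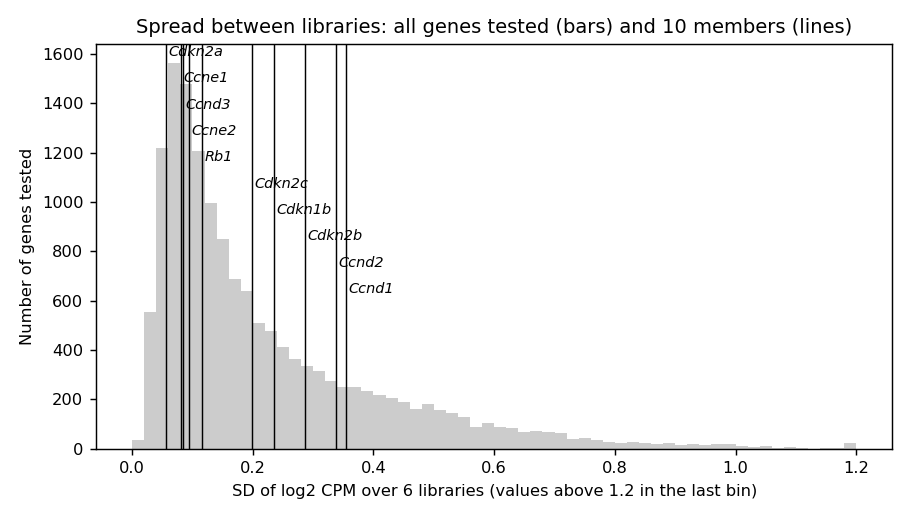
SD of log2 CPM over the 6 libraries (horizontal axis) against the number of genes tested (vertical axis, bars), with a line for each of the 10 genes. Cdkn2a lies at 0.057, on the left of the distribution, and Ccnd2 and Ccnd1 lie at 0.34 and 0.35, in its right part.

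By Pearson's r of log2 CPM over the 6 libraries, among 9509 genes with at least 10 CPM on average, the genes most like Ccnd1 were Btbd1 (r = 0.9995), Smchd1 (0.9993), a regulator of the inactive X chromosome, and Ankrd6 (0.9987). Those most like Ccnd2 were Nid2 (0.9986), a basement membrane protein, Akr1b8 (0.9975), an aldo-keto reductase, and Efemp2 (0.9968). Those most like Rb1 were Ttll4 (0.9983), a tubulin-modifying enzyme, Enah (0.9959), a regulator of actin, and Rrad (0.9956), a small GTPase. These are descriptions over 6 libraries, which enter every r alike, and are the highest values among all genes compared. Because the libraries were alike in pairs across groups, as given above, no r rests on 6 independent values.

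The next question was whether storage on the ISS changed any of these genes. None of the 10 passed edgeR's quasi-likelihood test with Benjamini-Hochberg adjustment over all genes tested (Space against Ground, threshold 0.05), where 0 genes were called in all (0%). None of the 10 had an unadjusted p under 0.05 by edgeR, DESeq2 or limma-voom, against 92 of all genes by edgeR (0.609%; 0.159% higher and 0.45% lower in Space), 71 by DESeq2 and 88 by limma-voom. The adjusted p was 0.9999 for each. Values below are log2 fold changes of Space relative to Ground.

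Among the D-type cyclins the intervals of Ccnd1 and Ccnd2 were wide and that of Ccnd3 was narrow. Ccnd1 stood at 149 ± 40.2 CPM in Ground against 150 ± 42.3 in Space (SD, n = 3), with a log2 fold change of 0.011 (SE 0.24). Its 95% interval, from -0.54 to 0.56, allows from 0.688 to 1.48 times the Ground level. The fit had no term for the pairs of like libraries across groups given above, so differences between those pairs counted as its error. Such pairs were not fitted as a block. Ccnd2 stood at 568 ± 150 CPM in Ground against 576 ± 159 in Space, with a log2 fold change of 0.019 (SE 0.23, 95% interval -0.51 to 0.55). Ccnd3 stood at 96.5 ± 6.20 CPM in Ground against 91.1 ± 3.91 in Space, with a log2 fold change of -0.083 (SE 0.068, 95% interval -0.24 to 0.073). As a ratio, the interval of Ccnd3 ran from 0.847 to 1.05, against 0.701 to 1.47 for Ccnd2.

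Among the E-type cyclins, Ccne1 had a log2 fold change of 0.0039 (SE 0.082, 95% interval -0.19 to 0.19) and Ccne2 -0.094 (SE 0.091, 95% interval -0.30 to 0.12). Rb1 stood at 70.1 ± 6.69 CPM in Ground against 70.7 ± 6.24 in Space, with a log2 fold change of 0.013 (SE 0.093, 95% interval -0.20 to 0.23). The signs of Ccnd1, Ccnd2, Ccne1 and Rb1 turned when single libraries were left out.

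The inhibitors had values below 0 without passing the test. Cdkn2b stood at 11.1 ± 0.980 CPM in Ground against 8.83 ± 1.83 in Space, with a log2 fold change of -0.33 (SE 0.18, 95% interval -0.74 to 0.089, edgeR unadjusted p = 0.107). Without Space-1 its log2 fold change was -0.16, and without Space-3 it was -0.43. Cdkn2a stood at 48.8 ± 1.93 CPM in Ground against 46.3 ± 0.934 in Space, with a log2 fold change of -0.073 (SE 0.066, 95% interval -0.23 to 0.079). Cdkn1b stood at -0.18 (SE 0.21, 95% interval -0.68 to 0.32) and Cdkn2c at -0.14 (SE 0.22, 95% interval -0.64 to 0.36).

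Cdkn2a and Cdkn2b were the only 2 of the 10 genes whose groups did not overlap, both lower in Space, out of 3.59% of all genes tested that did not overlap in either direction and 1.98% that were lower. With total counts in place of TMM, Cdkn2a overlapped and only Cdkn2b did not. The median log2 fold change of the 10 genes was -0.078 and that of all genes tested -0.0020. Of the 10, 6 had values below 0, and of all genes 7743 of 15104.

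**Figure D4:**
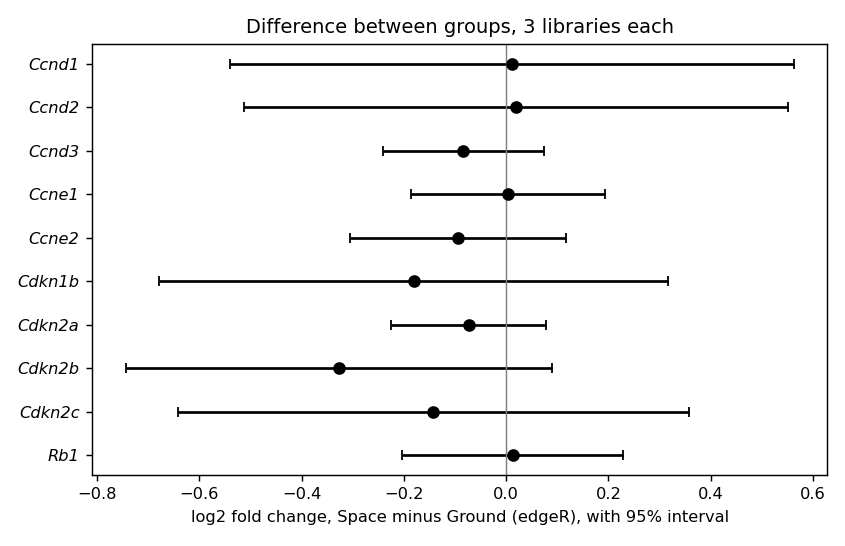
Log2 fold change of Space relative to Ground (horizontal axis, edgeR, points) with its 95% interval (bars) for the 10 genes (vertical axis), from 3 libraries per group. All 10 intervals include 0, the widest is that of Ccnd1 (-0.54 to 0.56), and Cdkn2b has the lowest point at -0.33.

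**Figure D5:**
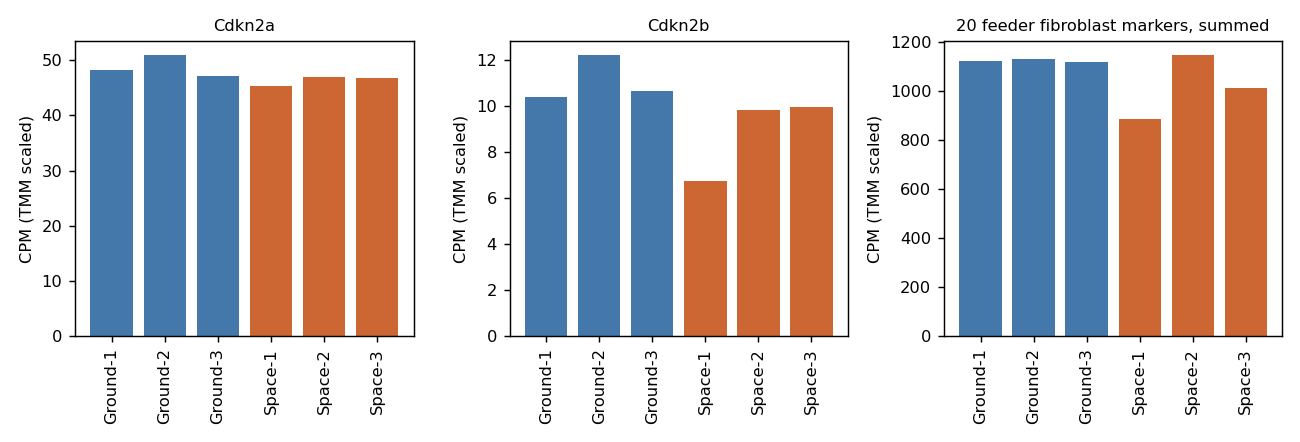
Levels of Cdkn2a (left), Cdkn2b (middle) and the sum of 20 fibroblast markers (right) in CPM (vertical axes, from 0) in the 6 libraries (Ground blue, Space orange). Space-1 is lowest for all 3, at 45.3, 6.71 and 885 CPM.

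The rest of the pathway was read from a list of 30 partners and regulators of the G1/S step, all of which passed the filter. None rose or fell by edgeR's adjusted test, as for all genes tested (0%). None had an edgeR unadjusted p under 0.05, against 0.609% of all genes. The median log2 fold change was -0.013, with 10 genes above and 20 below 0, against 51.3% of all genes below 0. Cdk4 had 198, 218 and 266 CPM in Ground against 256, 214 and 200 in Space. It was thus highest in Ground-3 and Space-1, the libraries with the most Ccnd1, and its log2 fold change was -0.027 (SE 0.13). Cdk6, the other partner of D-type cyclins, had 33.7 to 36.6 CPM in Ground and 33.8 to 38.6 in Space. Per kb of transcript, Cdk4 stood at 110 CPM and Cdk6 at 3.10.

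Cdk2, the partner of E-type cyclins, had a log2 fold change of -0.029 (SE 0.083). E2f1 had one of -0.0011 (SE 0.068), and Skp2, which marks p27 for degradation, one of 0.039 (SE 0.074). Of the Rb relatives, Rbl1 (p107) had -0.015 (SE 0.11) and Rbl2 (p130) 0.31 (SE 0.18), the latter on 3.35 to 3.99 CPM in Ground and 4.16 to 4.96 in Space. Rbl2 was the only gene of the list that lay higher in Space without overlap, as 1.61% of all genes did. The highest value was that of Fbxo4 at 0.46 (SE 0.49), on 0.288 to 1.04 CPM. The lowest was that of Cdkn1a at -0.28 (SE 0.14).

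Cdkn1a encodes p21, the inhibitor that p53 induces after DNA damage. It had 20.8, 21.3 and 26.4 CPM in Ground against 16.1, 20.7 and 19.5 in Space, without overlap and with an edgeR unadjusted p of 0.0755. It was the only gene of the list that lay lower in Space without overlap, as 1.98% of all genes did, and like Cdkn2b it was lowest in Space-1, the library with the lowest sum of fibroblast markers. Their part in this was not tested. The further inhibitors Cdkn1c (p57) and Cdkn2d (p19Ink4d) had log2 fold changes of -0.044 (SE 0.15) and -0.031 (SE 0.15). All 7 inhibitors, counted together after their values were seen, thus stood below 0, as did 51.3% of all genes. With total counts, a scaling under which 33.3% of all genes stood below 0, 6 of the 7 did so and Cdkn2d did not. Cdkn2d or Cdkn1c stood above 0 in 4 of the 6 fits without 1 library.

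Genes of S, G2 and M phase, which act after the G1/S step, were read from a second list. Of 22 listed genes, 0 were called, 0 had an unadjusted p under 0.05 by edgeR, and 0 had groups without overlap. The shares over all genes tested were 0%, 0.609% and 3.59%. Of the 22, 17 had values below 0, against 51.3% of all genes. The lowest log2 fold change was that of Cdk1, the kinase that drives entry into mitosis, at -0.093 (SE 0.13). Mki67 had 441, 523 and 504 CPM in Ground against 481, 494 and 419 in Space. Ccna2, the cyclin that follows cyclin E in S phase, had 149, 201 and 190 CPM in Ground against 191, 184 and 145 in Space. Summed over the 22 genes, Ground-1 and Space-3 had the lowest levels, 3334 and 3320 CPM, and the other 4 libraries had 3904 to 4080. Ground-1 and Space-3 were also the libraries with the most Ccnd2 and the least Ccnd1.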

How the data were processed

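Raw counts of 6 libraries, not normalized, were deposited by the authors in 1 table. Per the methods of the study and the submitters' processing notes, reads were trimmed with cutadapt (4.1 in the notes), aligned to mm10 with HISAT2 2.2.1 and GENCODE M21, and counted with HTSeq 2.0.2. Labels and methods both name stranded kits, but the strand option of the counting was not given in the sources used here, so it is unknown whether reads of genes that overlap on the opposite strand were kept apart. This touches Ccnd1 (LTO1, 1100 exonic bases), Ccnd2 (antisense RNAs), Ccnd3 (Bysl, 361), Ccne2 (Ints8, 609) and Rb1 (Rcbtb2, 488, and Lpar6, 408). The kits and sequencers named differ between the labels and the methods.

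Genes were filtered with filterByExpr, scaled by TMM and tested across the whole table with edgeR 4.0.16 in R 4.3.3 (quasi-likelihood F test, 2-sided, Benjamini-Hochberg). The SE is the size of the log2 fold change divided by the square root of F. Log2 CPM used a prior count of 2. Depth ran from 19015985 to 24110916 counts, and 3 counts corresponded to 0.120 to 0.160 CPM. Copies were searched with minimap2. Alternatives were other scalings and filters, DESeq2 1.42.0, limma-voom (limma 3.58.1), a replicate block and leaving out each library. The scripts were tested on simulated data.

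The members and lists were chosen with earlier results of these data known. Named genes were all members, 12 listed pathway genes, the extreme values of each pathway list, and for the 3 members with the largest SD at 10 CPM or more the 3 genes most like them. A gene that this rule selects is not reported here. No 2 libraries held identical values, and within groups the median chi-square of their counts was 5.27 to 10.3 times that of sampling noise.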

Additional observations from a re-analysis of the deposited data

How the results depend on the processing

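The count of 0 members, 0 genes of the G1/S list and 0 genes in all held in all 14 alternatives, and in the fits without 1 library it ran from 0 to 0. None of the 10 members had an unadjusted p under 0.05 in any of these fits by edgeR, DESeq2 or limma-voom, while 63 to 192 of all genes did. With the replicate number as a replicate block 0 genes and 0 members were called, and 63 genes had an unadjusted p under 0.05. The numbers did not pair the libraries: the deviations from the group means of same-numbered libraries correlated at -0.48, 0.28 and -0.60, and only the libraries numbered 2 correlated best with their own number.

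Ccnd3, Ccne2, Cdkn1b, Cdkn2a, Cdkn2b and Cdkn2c kept their sign in 14 of 14 alternatives. Their sizes still moved without 1 library: Cdkn2c ran from -0.29 without Space-2 to -0.0079 without Space-3, Cdkn1b from -0.38 without Space-1 to -0.085 without Space-3, and Ccne2 from -0.16 without Space-1 to -0.039 without Space-2. Ccnd3 ran from -0.14 without Ground-1 to -0.044 without Ground-3, Cdkn2a from -0.092 without Ground-3 to -0.042 without Ground-2, and Cdkn2b from -0.43 without Space-3 to -0.16 without Space-1. Values near 0 turned. Ccnd1 gave -0.16 without Ground-1, -0.0080 without Ground-2 and -0.23 without Space-1, with a range of -0.23 to 0.24 in the fits without 1 library. Ccnd2 gave -0.040 without Ground-2, -0.12 without Ground-3 and -0.22 without Space-3 (range -0.22 to 0.25). Ccne1 gave -0.0019 with limma-voom, -0.0053 without Ground-1, -0.037 without Space-2 and -0.026 without Space-3 (range -0.037 to 0.073). Rb1 gave -0.042 without Ground-1, -0.0091 without Ground-2 and -0.064 without Space-1 (range -0.064 to 0.098). The cause was not tested. In comparisons added after seeing the data, the number of members whose groups did not overlap was 2 with RLE scaling and without mitochondrial genes, and 1 with total counts, which moved the median log2 fold change of all genes to 0.033. Depth limited Cdkn1b and Cdkn2c, with 59 to 115 counts per library.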
